A study of Homo sapiens with 11 samples.

Results

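Chromatin domains called from Hi-C in DMS153, a small cell lung carcinoma line, were matched to those called in MRC5, a noncancerous fibroblast line from lung. Both lines grew in the same RPMI 1640 medium with serum and received no drug or gene edit. Their chromatin was fixed with formaldehyde, cut with MboI, religated, and sequenced, with 1 Hi-C library per line. Every deposited domain of the 2 lines outside chromosome Y was used, which gave 8721 domains, 5023 from DMS153 and 3698 from MRC5, of 12696 domains in the 3 lines of the series. H209, the other small cell lung carcinoma line, has 3975 domains and serves only as a scale. RNA-seq of the same lines, with 3 libraries each of DMS153 and MRC5 and 2 of H209, is a readout that the matching did not use. A cell line is 1 derivation grown in culture, so the values describe DMS153 and MRC5 and not carcinomas or fibroblasts at large. With 1 Hi-C library per line no domain difference has a replicate check, and all Hi-C values below are descriptions of these libraries. The read depth of the Hi-C libraries is not given in the sources used here, and exact 95% Clopper-Pearson intervals on shares cover counting error only.

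Topological domains are stretches of a chromosome within which DNA contacts are more frequent than with the flanks. In the loop extrusion model the cohesin ring, built with STAG1 or STAG2, reels in chromatin until it meets bound CTCF, a zinc finger protein that sits at many domain ends. Domains confine much of the contact between enhancers and promoters, and many ends are shared between cell types, while active gene starts also gather at ends.

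The marker genes went with the labels of the lines. The neuroendocrine and epithelial markers INSM1, CHGA, NKX2-1 and EPCAM lay between 67.6 and 348 FPKM in the DMS153 libraries and at 0.161 FPKM or below in the MRC5 libraries. FPKM divides the fragments of a gene by its length and by the total mapped in that library. The fibroblast markers VIM, COL1A1, COL1A2, DCN and THY1 lay between 453 and 2480 FPKM in MRC5 and at 7.52 FPKM or below in DMS153. The endothelial markers CDH5 and VWF and the blood markers PTPRC and CD3E were at 0.215 FPKM or below in both lines, and CD68, a lysosomal protein of macrophages that other cells also make, lay between 22.1 and 33.3 FPKM in MRC5.

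A pair of short sequence sets is shown here, from genes in or near unmatched domains described below. The first holds the mature microRNAs of the 4 loci with the highest RNA level in the unmatched MRC5 domain at chr14:100840000-102159998 (hg19), with the seed, bases 2 to 8, in capitals. They are copied from RefSeq on GRCh38.p14, and no seed is shared between them.
hsa-miR-409-3p: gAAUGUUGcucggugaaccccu
hsa-miR-409-5p: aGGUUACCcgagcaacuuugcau
hsa-miR-543: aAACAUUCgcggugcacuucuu
hsa-miR-370-3p: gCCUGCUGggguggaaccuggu
hsa-miR-370-5p: cAGGUCACgucucugcaguuac
hsa-miR-381-3p: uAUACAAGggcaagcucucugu
hsa-miR-381-5p: aGCGAGGUugcccuuuguauau

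The second set is promoter sequence with the letters CCANNAGNNGGC, a core of the motif that CTCF binds, searched on both strands. Of 22114 promoters in RefSeq on GRCh38.p14, 2.43% hold these letters. Among the core and list genes described below, the part upstream of the start held them at 3 genes, of which CHGA and CD68 start within 20 kb of an end of an unmatched MRC5 domain and STAG1 does not. Both stretches are written 5′ to 3′ on the strand of the gene with the match in capitals, which at CHGA lies on the opposite strand, 207 bases before the start, and at CD68 38 bases before the start. They come from chr14:92922918-92922979 and chr17:7579575-7579636 of GRCh38.p14, plus strand.
CHGA: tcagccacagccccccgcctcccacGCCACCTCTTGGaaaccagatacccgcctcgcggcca
CD68: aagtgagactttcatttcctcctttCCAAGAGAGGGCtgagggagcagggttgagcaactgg

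DMS153 had 1.36 times as many domains as MRC5, and they were smaller. The median size was 240 kb in DMS153 (quartiles 140 and 420 kb) and 300 kb in MRC5 (180 and 540 kb), with a smallest size of 80 kb and a largest of 2000 kb in both. DMS153 had 665 domains of 100 kb or less and MRC5 294, whereas domains of 1 Mb or more numbered 240 in DMS153 and 394 in MRC5. The covered length was alike, 1713 Mb in DMS153 and 1651 Mb in MRC5. Of that, 1237 Mb was covered in both lines, which is 75.0% of the MRC5 and 72.2% of the DMS153 length, while 476 Mb was covered in DMS153 only and 413 Mb in MRC5 only. DMS153 domains were more often directly followed by the next domain, 31.1% against 26.5% in MRC5. A like length of genome was divided into more and smaller units in the DMS153 file.

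Each domain was put in 1 of 5 classes. A domain was kept when a domain of the other line overlapped at least 80% of the longer of the pair. It was split when it held at least 2 smaller domains of the other line, each at least 80% inside it, that together covered at least 80% of it. It was merged when it was itself such a piece of a larger domain of the other line, shifted when its best reciprocal overlap was at least 50% and below 80%, and unmatched otherwise. Of the MRC5 domains, 2222 were kept, 60.1% (interval 58.5 to 61.7). A further 443 were shifted (12.0%, 10.9 to 13.1), 86 were split (2.33%, 1.86 to 2.86), 39 were merged (1.05%, 0.751 to 1.44) and 908 were unmatched (24.6%, 23.2 to 26.0).

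Seen from DMS153, kept and unmatched domains were about equal in number. The same 2222 pairs were 44.2% of its domains (42.9 to 45.6) and 2138 domains were unmatched (42.6%, 41.2 to 43.9). Pieces of a larger MRC5 domain numbered 202 (4.02%), and 18 DMS153 domains joined several MRC5 domains (0.358%). Under these rules splitting of MRC5 domains in DMS153 was recorded more often than joining, in a comparison where DMS153 also had more domains. With shifted called before split and merged the order turned, with 0.406% of MRC5 domains split and 0.649% merged. The DMS153 domains were then limited to the 3698 with the highest deposited score. With these, 52.1% of the domains of either line were kept, and 36.9% of MRC5 domains were unmatched, 1.27% split and 0.757% merged. Against H209, 55.9% of DMS153 domains were kept, which is 70.6% of the H209 domains. Between H209 and MRC5, 58.3% of MRC5 and 54.3% of H209 domains were kept. These comparisons share libraries and are given side by side only.

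**Figure D1:**
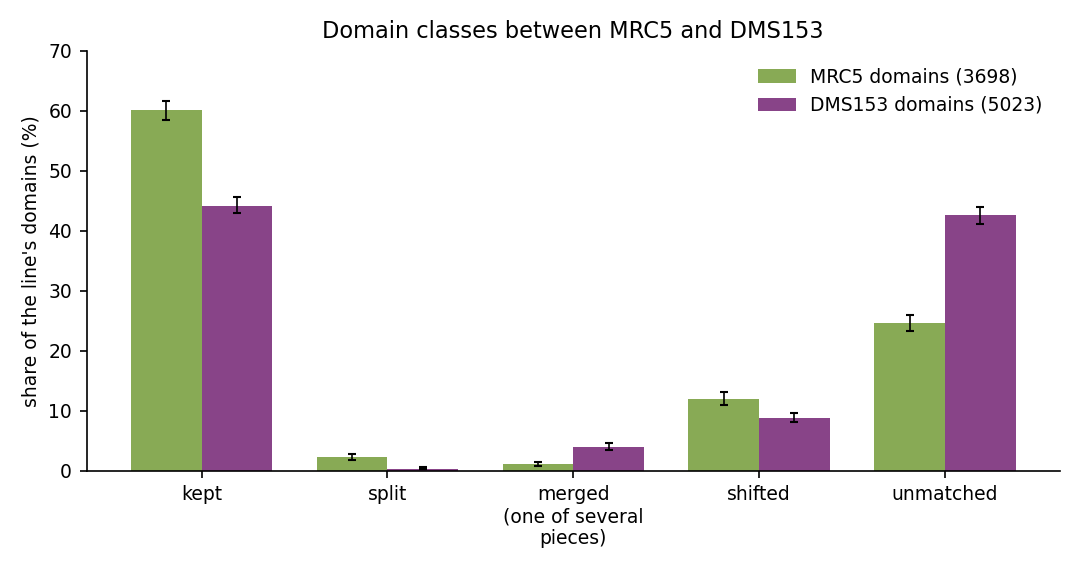
Share of the domains of MRC5 (green, 3698 domains) and DMS153 (purple, 5023 domains) in each class, in percent, with exact 95% intervals for counting error as bars. Kept domains are 60.1% of MRC5 and 44.2% of DMS153 domains, and unmatched domains 24.6% and 42.6%.

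Kept domains mostly had the same ends on the 20 kb grid of the files. Both ends were equal in 1394 pairs, 62.7% of the kept pairs, 37.7% of all MRC5 and 27.8% of all DMS153 domains. A further 704 pairs (31.7%) had 1 equal end, and 124 (5.58%) had none. In 99.5% of the kept pairs at least 1 end lay within 20 kb. Neither line was the longer one as a rule, with 438 kept domains shorter and 367 longer in DMS153. Near the 80% limit, 149 pairs lay between 0.8 and 0.85 and 91 between 0.75 and 0.8. With a limit of 90% the kept share of MRC5 domains was 51.7%, and with 70% it was 64.9%.

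Shifted domains moved mainly at 1 end. In 251 of 443 pairs 1 end was equal, and the end that moved did so by a median of 120 kb. The domain was shorter in DMS153 in 284 pairs (64.1%) and longer in 159, with a median difference of -80 kb for DMS153 minus MRC5. The largest shifted MRC5 domain, chr4:18700000-20699998, spanned 2000 kb against 1020 kb in DMS153, with a reciprocal overlap of 0.51. Between 0.5 and 0.55 lay 111 MRC5 domains, and 65 between 0.45 and 0.5.

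Split domains were large. Their median was 630 kb in MRC5, 74 of the 86 fell into 2 pieces and 12 into 3 or more, and the largest piece made up a median of 56.4% of the whole. Both outer ends were kept in 20 of them, 1 outer end in 45 and none in 21. The MRC5 domain chr16:22540000-24519998, 1980 kb long and 1 of 3 with the most pieces, held 5 DMS153 domains of 500, 100, 280, 260 and 480 kb, with a stretch free of DMS153 domains between those of 280 and 260 kb. In the opposite direction, the 900 kb DMS153 domain chr1:9660000-10559998 joined 4 MRC5 domains of 260, 220, 160 and 80 kb, and its neighbours on both sides were kept. The largest merged MRC5 domain, chrX:32400000-33419998, was 1020 kb long and lay in a DMS153 domain of 1940 kb. These 2 classes depended on the order of the rules: with shifted called first, 0.406% of MRC5 domains were split and 0.649% merged. Merged domains then outnumbered split ones. With pieces that had to cover 60% of the domain, 4.57% were split, and without the 25% of domains with the lowest scores 1.41% were split and 0.433% merged.

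Unmatched domains differed in kind between the lines. In MRC5, 479 of the 908 overlapped DMS153 domains in part and were large, with a median of 720 kb, 300 met no DMS153 domain at all (median 200 kb) and 129 lay inside 1 larger DMS153 domain (median 180 kb). In DMS153, 1177 of the 2138 met no MRC5 domain, 657 lay inside 1 larger MRC5 domain and 304 overlapped in part. The 1177 domains without any MRC5 counterpart had a median of 180 kb and covered 316 Mb. Of these, 402 (34.2%) abutted an MRC5 domain, 47 of them on both sides, and 481 (40.9%) lay in stretches of 1 Mb or more without MRC5 domains. The largest unmatched MRC5 domain by position among 11 of 2000 kb, chr2:140900000-142899998, was covered to 28% by 2 DMS153 domains.

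**Figure D2:**
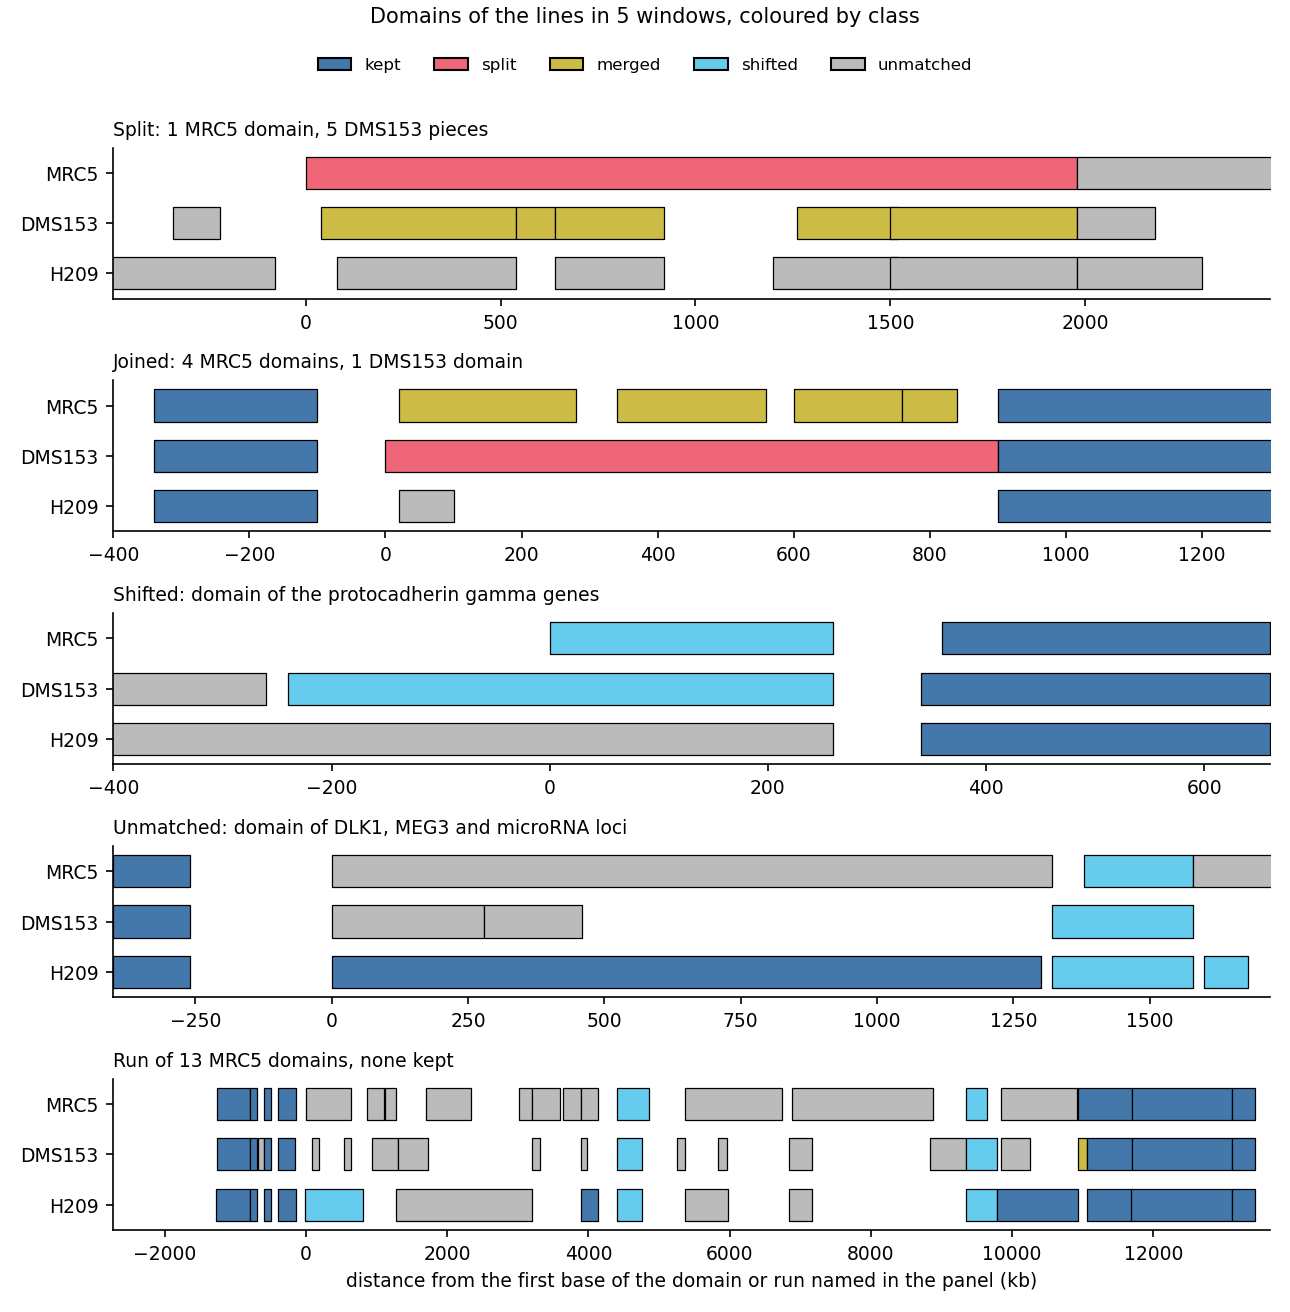
Domains of MRC5, DMS153 and H209 as boxes in 5 windows, with the distance in kb from the first base of the domain or run named above each panel on the horizontal axis. Colours give the class of each MRC5 domain against DMS153 and of each DMS153 or H209 domain against MRC5; boxes are cut at the window's edge. The split panel shows the 5 DMS153 pieces, and the lowest panel the 13 MRC5 domains in a row of which none was kept.

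The kept share went with size in opposite directions in the 2 lines, which had about equal numbers of kept domains in each size group. Of MRC5 domains, 66.3% were kept at 80 to 180 kb (1031 domains), 63.5% at 200 to 380 kb, 59.7% at 400 to 780 kb and 41.5% at 800 kb to 2 Mb (566 domains). In the largest group 42.8% were unmatched and 6.01% split. The share with both ends equal fell from 50.1% in the smallest group to 16.3% in the largest. Of DMS153 domains, 35.8% of the smallest were kept (1924 domains), then 46.8%, 50.6% and 58.2% of the largest (397 domains). The intervals of the smallest and the largest group did not overlap in either line. Kept pairs are alike in length by the rule, so the kept counts were near equal in MRC5 and DMS153. They were 684 and 689 in the smallest group and 235 and 231 in the largest. The opposite directions therefore restate that DMS153 had more small and fewer large domains.

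The deposited score, whose meaning is not stated, also went with the class. In 4 groups of about equal size from the lowest to the highest score, 38.1%, 54.8%, 66.2% and 81.4% of MRC5 domains were kept, and 21.3%, 36.0%, 50.5% and 69.2% of DMS153 domains. Within each size group of MRC5, the upper part by score was kept more often than the lower, with 80.4% against 56.7% at 80 to 180 kb and 58.0% against 26.0% at 800 kb to 2 Mb. Low scores and absence from the other file therefore lay together, and their part in the classes was not tested.

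All 23 chromosomes had more DMS153 than MRC5 domains and a smaller DMS153 median. The ratio of the counts ran from 1.21 on chromosome 17 to 1.73 on X. The share of MRC5 domains kept ran from 48.6% on chromosomes 7 and 18 to 70.4% on chromosome 22, with a median of 61.7%. The interval lay below the genome's 60.1% on chromosomes 7 and 10 and above it on chromosomes 1 and 9. On chromosomes 18 and 22 it included 60.1%. Chromosome 7 also had the highest unmatched share, 34.3%, and chromosome 22 the lowest, 16.7%. Split domains took their highest share on chromosome 18, 5.41%, 2 chromosomes had none, and 11 chromosomes had no merged domain. From the DMS153 side, X had the lowest kept share, 30.4%, and chromosome 17 the highest, 53.9%. DMS153 domains that met no MRC5 domain made up from 15.6% on chromosome 13 to 44.3% on chromosome 21.

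**Figure D3:**
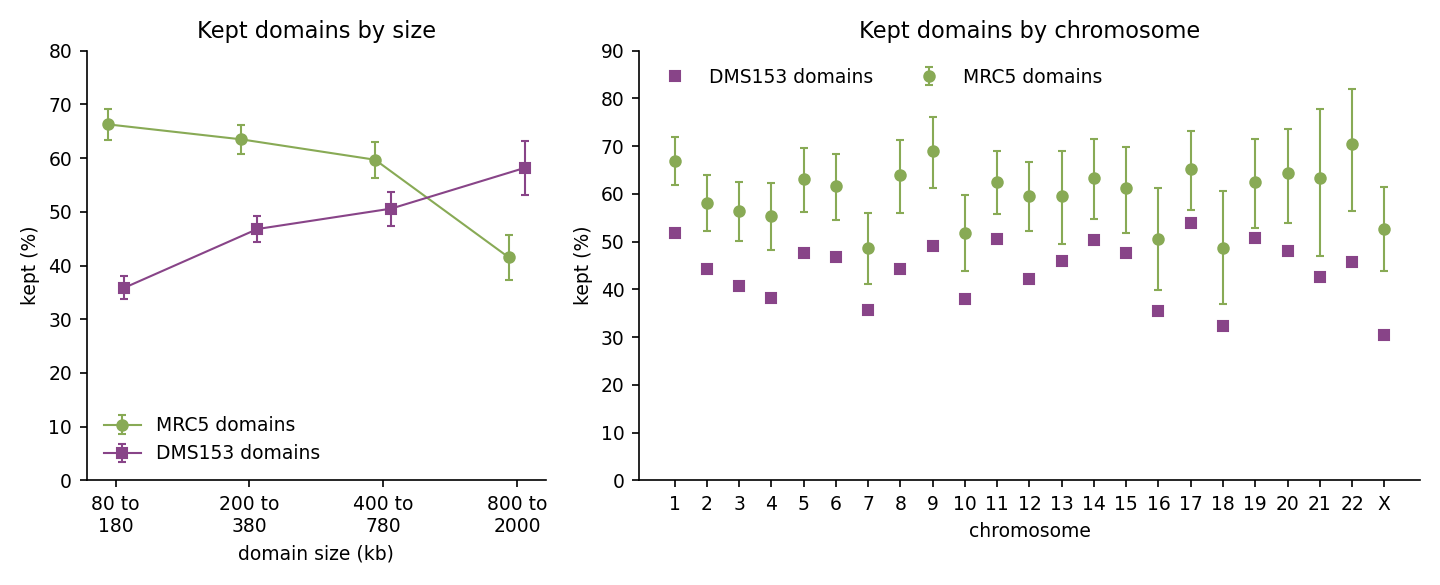
Percent of domains kept, by domain size in kb (left) and by chromosome (right), for MRC5 (green circles) and DMS153 (purple squares). Bars are exact 95% intervals for counting error, drawn at right for MRC5 only. The kept share of MRC5 domains falls from 66.3% to 41.5% with size while that of DMS153 domains climbs from 35.8% to 58.2%.

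Runs of neighbouring kept or unkept domains were looked up along chromosomes. Whether they were longer than independent placement would give was not tested. The longest runs of kept MRC5 domains held 15 in a row, at chr11:17240000-32199998 and at chr22:25040000-32039998. On chromosome 11, DMS153 had 26 domains in the 15.0 Mb run, and 13 of the 15 MRC5 domains were also kept in H209. The longest run with none kept held 13 MRC5 domains at chr7:1620000-12539998. DMS153 had 13 domains over these 10.9 Mb, all unkept, and 2 of the 13 MRC5 domains were kept in H209. The first 8 of them, up to position 5759998, were also the longest unmatched run. The stretch without MRC5 domains that held the most DMS153 domains was chrX:123520000-128739999, where 8 of them covered 65.5% of 5.22 Mb.

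RNA in these stretches was measured apart from the matching. Across all genes, limma on log2(FPKM + 1) called 34.0% of 19066 tested genes higher and 16.4% lower in DMS153, at an adjusted p below 0.05 (Benjamini-Hochberg) and a change of at least 1 on the log2 scale. Of these calls 67.5% were higher as deposited, against 49.0% after median ratio scaling and 48.9% after quantile normalization. As deposited, the median gene stood 0.44 higher in DMS153 on the log2 scale. The labels do not say that RNA replicates were separate cultures, so p-values measure the spread between these libraries only, and fewer cells of a kind cannot be told apart from less RNA per cell. A gene belongs to the domain that holds the midpoint of its locus. In the kept run on chromosome 11, 27 of 50 tested genes were higher and 6 lower. In the unkept run on chromosome 7, 33 of 80 were higher and 3 lower, and in the stretch on X, 3 of 6 were higher and none lower.

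The kept run on chromosome 11 held genes with very large differences inside kept domains. TPH1, the enzyme that starts serotonin synthesis outside the brain, measured 330, 239 and 436 FPKM in DMS153 and 0.0671, 0.0293 and 0.00273 FPKM in MRC5. It lay in a 120 kb domain with the same ends in both lines (log2 change 8.30 ± 0.18 SE, limma adjusted p = 2.83e-10). BDNF, a neurotrophin, measured 0.187, 0.0701 and 0.123 FPKM in DMS153 against 60.8, 62.4 and 62.6 FPKM in MRC5, in a kept domain of 1680 kb in MRC5 and 1860 kb in DMS153. ABCC8, the sulfonylurea receptor of ATP-sensitive potassium channels, measured 30.1, 36.1 and 33.4 FPKM in DMS153 and at most 0.0024 FPKM in MRC5, in a 160 kb domain of MRC5. All 3 genes kept their calls under both scalings, and in none did the libraries of the lines overlap.

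The genes with the largest differences in the unkept run on chromosome 7 were all higher in DMS153. ICA1, islet cell autoantigen 1, measured 163, 166 and 178 FPKM in DMS153 and at most 0.000982 FPKM in MRC5. It lay in an unmatched MRC5 domain of 1380 kb, as did GLCCI1, a glucocorticoid-induced gene, at 62.2, 70.3 and 64.9 FPKM in DMS153 and 4.23, 3.46 and 3.6 FPKM in MRC5. LFNG, a glycosyltransferase that modifies Notch receptors, measured 85.8, 92.6 and 92.8 FPKM in DMS153 against 0.186, 0.309 and 0.382 FPKM in MRC5 (log2 change 6.15 ± 0.07, limma adjusted p = 8.38e-12). On X, TENM1, a teneurin of neural contacts, measured 8.74, 8.18 and 8.26 FPKM in DMS153 and 0.603, 0.351 and 0.519 FPKM in MRC5. The midpoint of its locus lay in an 820 kb DMS153 domain that met no MRC5 domain, and the locus starts before that domain. OCRL, an inositol phosphatase gene in the same stretch, was called higher as deposited (log2 change 1.14 ± 0.06, limma adjusted p = 1.38e-07) and not called under either scaling.

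By class of the MRC5 domain, the shares of called genes stayed close to those over all genes. In kept domains 34.2% of 5152 tested genes were higher and 19.6% lower, in shifted domains 34.0% and 21.2% of 1205, and in unmatched domains 34.9% and 19.2% of 2682. Outside MRC5 domains, 33.6% of 9549 genes were higher and 13.1% lower. The shares of higher genes lie near the background of 34.0%, and those of lower genes somewhat above 16.4% in all of these domain classes and below it outside domains. The small split class stood higher, with 43.7% of 318 genes higher and 16.4% lower. The 94 genes of merged domains stood at 29.8% and 23.4%. Genes of MRC5 domains that met no DMS153 domain had fewer higher and more lower calls, 27.5% and 22.4% of 749.

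From the DMS153 side, genes in unmatched domains and in pieces of larger MRC5 domains were more often higher than all tested genes. Of 3134 genes in unmatched DMS153 domains, 39.8% were higher and 14.5% lower, and of 1761 in those that met no MRC5 domain, 39.9% and 13.2%. The 271 genes in pieces of larger MRC5 domains had 45.4% higher and 15.9% lower. After median ratio scaling, which put all genes at 24.4% higher and 25.4% lower, unmatched DMS153 domains held 30.3% higher and 23.0% lower, pieces 37.3% and 21.0%, and MRC5 domains without overlap 19.9% and 30.2%. Ranked by the share of higher genes these 3 classes had the same order on both scales, while by the share of lower genes pieces and unmatched DMS153 domains changed places. Neighbouring genes share a domain and are not independent, and no test was run on these shares. Domains without any tested gene made up 39.5% of the unmatched DMS153 domains, 34.2% of the pieces, 11.9% of the kept and 19.9% of the unmatched MRC5 domains.

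The unmatched MRC5 domain with the most called genes was the imprinted DLK1 and MEG3 region, 1320 kb at chr14:100840000-102159998. In DMS153, 2 domains of 280 and 180 kb covered 34.8% of it from its start, and the remainder up to the next domain had none, whereas H209 had a 1300 kb domain there that counted as kept. Of 40 tested genes in the MRC5 domain, 31 were higher and 5 lower in DMS153. Of these, all 28 microRNA loci were higher, each listed at 0 in the 3 MRC5 libraries, and the remaining 12 genes gave 3 higher and 5 lower calls, or 8 lower under either scaling. The locus of MIR409 measured 439, 759 and 499 FPKM in DMS153 and that of MIR543 488, 639 and 365 FPKM. MIR370 stood at 190, 311 and 142 FPKM and MIR381 at 171, 181 and 222 FPKM. An FPKM of a locus does not tell which mature arm, shown above, was present. All 4 loci lay in the part of the domain where DMS153 had no domain call.

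The microRNA result moved with a property of the libraries. Over the genome 210 of 1377 listed microRNA loci passed the filter, and 196 of the 210 were higher (93.3%). All listed microRNA loci together held 39.4 to 43.7% of the summed FPKM in the DMS153 libraries against 0.00839 to 0.0142% in MRC5. In H209 the 4 named loci were listed at 0. The part of this difference between libraries in the chromosome 14 result was not tested.

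The longer genes of the region split in direction. DLK1, a membrane protein of the Notch ligand family made from the paternal copy, measured 119, 92.6 and 165 FPKM in DMS153 and 0.242, 0.0805 and 0.101 FPKM in MRC5 (log2 change 6.75 ± 0.18, limma adjusted p = 8.02e-10). MEG3, a long noncoding RNA made from the maternal copy, measured 49.7, 51.6 and 62.3 FPKM in DMS153 and 578, 521 and 568 FPKM in MRC5 (log2 change -3.33 ± 0.09, limma adjusted p = 1.02e-09). Neighbours with opposite directions lay in 1 DMS153 domain of 180 kb, chr14:101120000-101299998, which holds the midpoints of both. MEG9, another noncoding RNA, fell from 5.92, 7.05 and 6.59 FPKM in MRC5 to 2.07, 1.66 and 2.14 FPKM in DMS153. BEGAIN, a postsynaptic protein gene at the left of the domain, measured 1.52, 2.18 and 2.08 FPKM in DMS153 and 0.196, 0.374 and 0.0364 FPKM in MRC5, a call that quantile normalization removed.

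Leaving out small RNA loci changed which domain led in 2 classes. Among unmatched domains it was then a 380 kb MRC5 domain at chr17:7120000-7499998 that met no DMS153 domain, with 5 of 34 genes higher and 15 lower. YBX2, a germ cell RNA-binding protein, measured 32.1, 38.5 and 33.2 FPKM in DMS153 against 0.101, 0.43 and 0.0191 FPKM in MRC5. CD68, whose promoter is shown above, measured 0.129, 0.121 and 0.171 FPKM in DMS153 against 22.1, 33.3 and 25.5 FPKM in MRC5 (log2 change -4.60 ± 0.13, limma adjusted p = 1.40e-09). The domain holds the genes for CLDN7, an epithelial tight junction protein that was higher, and POLR2A, the large subunit of RNA polymerase II, which was not called, named after their calls were seen. Among split domains it was the chromosome 16 domain of 5 pieces, with 7 of 18 genes higher and none lower. PLK1, a mitotic kinase, measured 56.7, 70.8 and 62.0 FPKM in DMS153 and 1.49, 2.81 and 1.59 FPKM in MRC5, and GGA2, a sorting adaptor of the Golgi, 63.8, 67.1 and 62.8 FPKM against 13.5, 12.8 and 13.8 FPKM. Both gene midpoints lay in the stretch without DMS153 domains between the pieces.

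With all loci, the split domain with the most called genes was chr13:50220000-51679998, 1460 kb in 2 pieces, with 6 of 11 genes higher and 2 lower. Of the 6 higher calls 4 were small RNA loci (RNY4P9, RNY4P30, MIR3613 and MIR16-1). Over the whole genome 378 of 7305 listed loci of this kind were tested, and 83.1% of the 378 were higher. It holds DLEU2, a noncoding host gene of MIR16-1, at 21.1, 13.7 and 20.5 FPKM in DMS153 and 0.692, 0.563 and 0.947 FPKM in MRC5 (log2 change 3.47 ± 0.16, limma adjusted p = 3.67e-08). MIR16-1 was listed at 0 in the MRC5 libraries and measured 21.1, 9.72 and 48.9 FPKM in DMS153. SPRYD7, a gene of the same region, which is often deleted in chronic lymphocytic leukemia, measured 3.06, 2.53 and 2.74 FPKM in DMS153 against 9.48, 9.04 and 9.4 FPKM in MRC5, and its midpoint lay between the pieces. Genes of both directions lay in the split domain. The mature products of MIR16-1 are shown with the seed in capitals, since it is the best known product of this domain.
hsa-miR-16-5p: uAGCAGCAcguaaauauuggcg
hsa-miR-16-1-3p: cCAGUAUUaacugugcugcuga

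In the leading merged domain 6 of 12 tested genes were lower in DMS153, 1 was higher and 5 were not called. The domain, 240 kb at chr3:50140000-50379998 in MRC5, lay in a DMS153 domain of 660 kb. SEMA3B, a secreted semaphorin, measured 0.67, 0.646 and 0.693 FPKM in DMS153 against 21.2, 22.4 and 21.0 FPKM in MRC5 (log2 change -3.75 ± 0.08, limma adjusted p = 2.56e-10). GNAI2, an inhibitory G protein subunit, stood at 27.0, 28.2 and 30.4 FPKM against 183, 227 and 193 FPKM. The others that fell were SEMA3F, IFRD2, RASSF1 and TUSC2, the latter pair being candidate tumour suppressors of the short arm of chromosome 3. SLC38A3, a glutamine transporter gene, was higher as deposited and not called under either scaling.

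In the leading kept domain, chr5:175660000-177099998, 10 of 38 genes were higher and 11 lower, beside 34.0% and 16.4% of all genes. Its size was 1440 kb in MRC5 and 1680 kb in DMS153. PDLIM7, an actin-associated scaffold, measured 15.4, 17.6 and 19.5 FPKM in DMS153 against 164, 196 and 179 FPKM in MRC5. RGS14, a regulator of G protein signalling, measured 13.5, 13.4 and 15.8 FPKM against 0.338, 1.44 and 0.608 FPKM. Large differences in both directions lay in this kept domain.

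The leading shifted domain held the protocadherin gamma genes, cadherins of the cell surface whose many variable exons share constant ones. In MRC5 it ran from 140700000 to 140959998 on chromosome 5 (260 kb), and in DMS153 it began 240 kb earlier with the same right end (500 kb), which also took in the beta genes. In H209 a domain of 840 kb ended at the same position. Of 17 tested gamma genes 13 were lower and 1 higher, with 15 and 16 lower under median ratio and quantile scaling. PCDHGB4 measured 0.0839, 0.0627 and 0.0696 FPKM in DMS153 against 10.2, 11.9 and 9.92 FPKM in MRC5 (log2 change -3.44 ± 0.08, limma adjusted p = 4.18e-10), and PCDHGA2 0.00141, 0.0633 and 0.0387 FPKM against 6.59, 6.63 and 6.48 FPKM. PCDHGC4 was the one that was higher, at 2.69, 3.16 and 3.3 FPKM in DMS153 and 0.00596, 0.0114 and 0.0265 FPKM in MRC5. Values of single gamma genes are uncertain, since their transcripts share the constant exons and their loci overlap.

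The neighbouring alpha and beta genes had no domain in MRC5. In DMS153 the midpoints of the alpha genes lay in a 200 kb domain that met no MRC5 domain, chr5:140240000-140439998, whose deposited score of 4.175 was well above the DMS153 median of 2.22. Some of the loci, such as those of PCDHA1, PCDHA2, PCDHA3 and PCDHA10, start before this domain. Of 9 tested alpha genes 2 were higher and none lower, PCDHA11 at 1.9, 2.05 and 2.32 FPKM in DMS153 and PCDHA12 at 1.9, 1.84 and 2.29 FPKM, with MRC5 at 0.0169 FPKM or below in both. Of 14 beta genes 2 were higher, PCDHB3 at 5.49, 5.01 and 5.66 FPKM against 0.125, 0.147 and 0.114 FPKM, and PCDHB8, the latter not under quantile normalization. None of the beta genes was lower as deposited, 2 were after median ratio scaling and 4 after quantile normalization. The higher shares, 22.2% of the alpha and 14.3% of the beta genes, stand beside 34.0% of all genes.

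The 4 HOX clusters, which hold transcription factors of body axis patterning, differed in class. HOXD kept both of its domains with equal ends in the 2 lines, 420 kb and 540 kb long, and all 9 tested genes were higher in DMS153 as deposited and under both scalings. These domains held the midpoints of 6 of the 9, while HOXD10, HOXD11 and HOXD12 lay outside domains in both lines. HOXD13, in the first domain, measured 22.5, 22.8 and 23.6 FPKM in DMS153 and 0.0132 FPKM or below in MRC5. HOXD8, in the second, measured 51.0, 58.1 and 58.8 FPKM against at most 0.0754 FPKM. The ends of these domains were the same in a line in which the cluster was listed at or near 0 and in a line in which it was expressed.

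HOXB went the other way. The MRC5 domain over 9 HOXB genes, 500 kb at chr17:46220000-46719998, met no DMS153 domain. Of the 8 tested among these genes, HOXB9 was higher, HOXB6 was lower and 6 were not called, and the call of HOXB9 was lost under quantile normalization. HOXB5 measured 15.8, 16.6 and 18.5 FPKM in DMS153 against 13.9, 16.6 and 15.8 FPKM in MRC5 (log2 change 0.13 ± 0.09, limma adjusted p = 0.187), and the libraries overlapped. HOXB13, in the adjoining split domain of 260 kb, measured 2.58, 2.42 and 3.28 FPKM against at most 0.000563 FPKM. In HOXA a kept domain of 480 kb in MRC5 reached 500 kb in DMS153, and the added 20 kb took in HOXA9 and HOXA10. HOXA10 measured 10.4, 12.3 and 12.0 FPKM in DMS153 and 0.0515, 0.109 and 0.0355 FPKM in MRC5, and HOXA9 9.45, 8.99 and 9.04 FPKM against at most 0.169 FPKM. HOXA6, inside both domains, was also higher as deposited and under both scalings, at 4.56, 3.69 and 4.2 FPKM against 0.292, 0.224 and 0.245 FPKM. HOXA5, likewise inside both, did not pass the test (log2 change 0.04 ± 0.14, limma adjusted p = 0.805). Of 8 tested HOXA genes 3 were higher and none lower as deposited. HOXC kept its 200 kb domain with equal ends, and DMS153 had a further 220 kb domain beside it. No tested HOXC gene was called as deposited, and HOXC8 was called lower under both scalings.

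Keratins, the intermediate filaments of epithelia, lay mostly in domains that were not kept. The type I genes lay in a 900 kb MRC5 domain at chr17:38940000-39839998 that was unmatched, with 2 DMS153 domains of 420 and 120 kb inside it. KRT19 in the gap between them measured 79.0, 86.0 and 83.8 FPKM in DMS153 and 0.288, 0.661 and 0.24 FPKM in MRC5 (log2 change 5.92 ± 0.11, limma adjusted p = 9.73e-11), whereas KRT10 in the same MRC5 domain fell from 8.25, 9.17 and 8.53 FPKM to 2.04, 2.02 and 1.95 FPKM. Of the type II genes, KRT7 lay in a 200 kb DMS153 domain that met no MRC5 domain and measured 25.2, 26.4 and 27.1 FPKM against 0.95, 1.84 and 0.956 FPKM. KRT8 and its type I partner KRT18 lay in a shifted domain of 140 kb in MRC5 and 100 kb in DMS153. KRT8 measured 346, 331 and 381 FPKM against 22.7, 25.2 and 25.8 FPKM. The large histone cluster on chromosome 6 had 3 MRC5 and 2 DMS153 domains, and none of them matched.

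A set of 35 core genes of small cell carcinoma, fibroblasts and chromatin was placed in the MRC5 domains. Kept domains held 12, shifted 6, unmatched 7 and split 2, and 8 lay outside. Of the 27 inside domains 12 lay in kept ones, against 54.5% of all tested genes inside MRC5 domains. DMS153 marker genes lay in kept, shifted and unmatched domains and outside domains. INSM1, a zinc finger factor of neuroendocrine cells, lay in a 220 kb domain with the same ends, chr20:20340000-20559998. It measured 183, 237 and 168 FPKM in DMS153 and was listed at 0 in MRC5. SOX2, a stem cell factor, lay at the start of a 1000 kb domain with equal ends and measured 20.0, 18.9 and 18.0 FPKM against 0.0417 FPKM or below. Both genes were listed at or near 0 in MRC5, which had a matching domain.

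NKX2-1 and CALCA, by contrast, lay in unmatched domains. NKX2-1, a factor of lung epithelium, lay in an MRC5 domain of 1360 kb that 3 DMS153 domains covered to 76.5%, and within DMS153 in 1 of 540 kb. CALCA, the gene of calcitonin and its related peptide, lay in an MRC5 domain of 580 kb and a DMS153 domain of 180 kb inside it. CDH1, the epithelial cadherin, lay in an MRC5 domain of 100 kb inside a DMS153 domain of 320 kb that counted as unmatched. GRP, gastrin-releasing peptide, lay in a shifted MRC5 domain of 360 kb and in an unmatched DMS153 domain of 80 kb. CHGA, the granule protein chromogranin A, was outside MRC5 domains and inside an 80 kb DMS153 domain, chr14:93340000-93419998, and measured 256, 219 and 348 FPKM against at most 0.00456 FPKM.

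Fibroblast genes also lay in several classes. VIM, the mesenchymal intermediate filament, and DCN, a matrix proteoglycan, lay in kept domains of 420 kb whose ends differed by 20 kb, and measured between 1650 and 2480 FPKM in MRC5 and 0.124 FPKM or below in DMS153. COL1A1, a collagen chain, and PRRX1, a mesenchymal factor, also lay in kept domains. THY1, a surface glycoprotein, and FOXF1, a factor of lung mesenchyme, lay in MRC5 domains of 140 and 500 kb that met no DMS153 domain. FOXF1 measured 106, 123 and 119 FPKM in MRC5 and 0.00807 FPKM or below in DMS153. TWIST1, a mesenchymal factor, lay in an MRC5 domain of 440 kb covered to 4.55% in DMS153. YAP1, the effector of the Hippo pathway, was outside MRC5 domains, and in DMS153, where it measured 0.425, 0.388 and 0.435 FPKM, in a domain of 260 kb.

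MYC and MYCL lay in split domains, and RB1, CDKN2A and BCL2 in shifted ones. MYC, a growth-promoting factor, lay at the edge of a split domain of 2000 kb, with a 940 kb DMS153 piece around it, and measured 2.79, 2.3 and 3.46 FPKM in DMS153 against 29.4, 33.4 and 30.4 FPKM in MRC5 (log2 change -3.07 ± 0.11, limma adjusted p = 7.65e-09). MYCL, amplified in some small cell carcinomas, lay in a split domain of 260 kb in a piece of 100 kb, and measured 55.9, 63.9 and 48.3 FPKM against 0.0718, 0.0659 and 0.0612 FPKM. RB1, the retinoblastoma protein, lay in a shifted domain of 260 kb in MRC5 and 480 kb in DMS153, and CDKN2A, a cell cycle inhibitor, in one of 440 kb in MRC5 and 220 kb in DMS153 with the same start. BCL2, which blocks apoptosis, lay in a domain of 220 kb in MRC5 and 320 kb in DMS153.

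**Figure D4:**
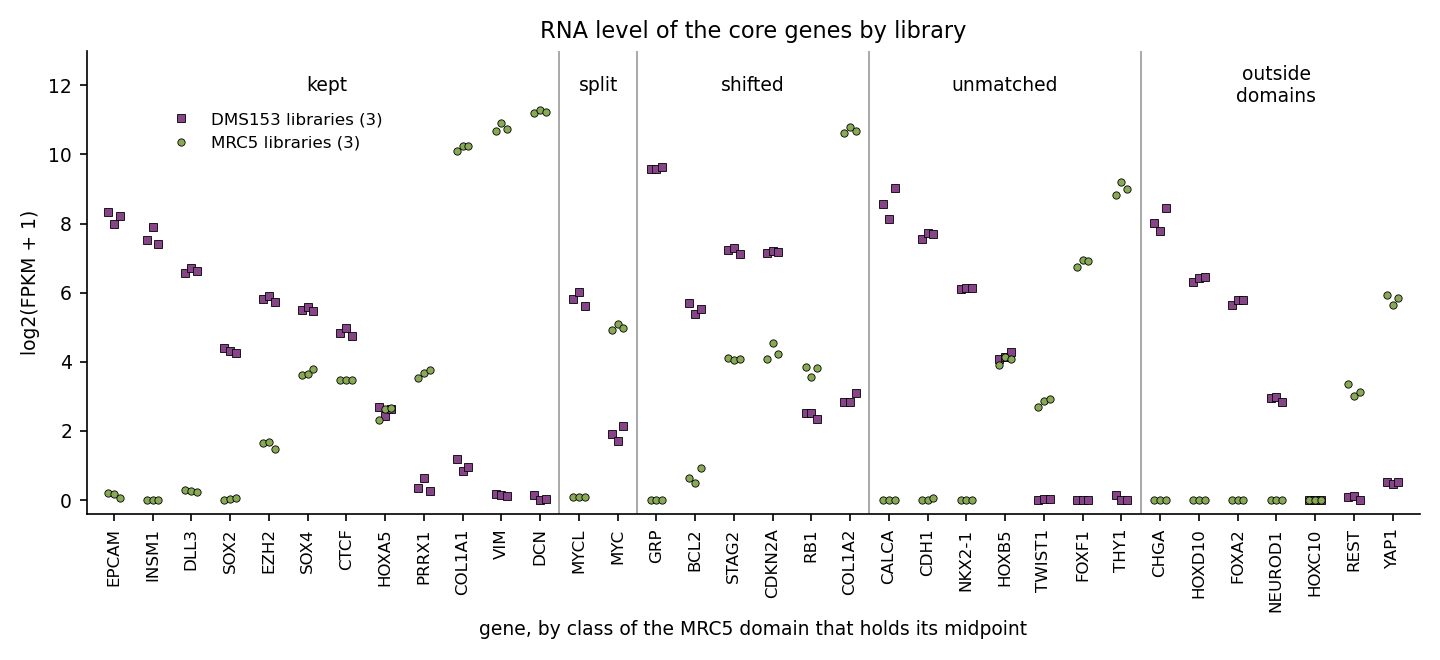
RNA level of 34 tested core genes as log2(FPKM + 1) in each of 3 DMS153 (purple squares) and 3 MRC5 libraries (green circles), grouped by the class of the MRC5 domain that holds the gene. Wide gaps between the lines occur in every group, for genes higher in either line. Many of these genes were chosen because they mark small cell carcinoma or fibroblasts, so the gaps do not bear on the classes.

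Over the gene lists, the share of genes inside MRC5 domains that lay in kept ones ran from 22.2% for blood and endothelial to 72.7% for contractile and adhesion genes. Of 37 neuroendocrine and lung lineage genes, 35 were higher and 1, UCHL1, lower, and 14 of the 28 inside MRC5 domains lay in kept ones. All 23 tested epithelial genes were higher, 22 under either scaling, and 4 of 13 lay in kept domains, with CLDN7, GRHL2, KRT19, SPINT1 and SPINT2 beside CDH1 in unmatched ones. Of 37 tested fibroblast genes, those of matrix included, 36 were lower, and 20 of 32 lay in kept domains. Of 28 contractile and adhesion genes 25 were lower, or 26 under either scaling, with 8 of 11 in kept domains. CYR61, a matrix-associated target of YAP1, measured 0.553, 0.549 and 0.459 FPKM in DMS153 against 390, 452 and 406 FPKM in MRC5 in a 300 kb domain with equal ends. Of 24 cell division genes 23 were higher, with 7 of 11 in kept domains, among them MKI67 at 96.6, 114 and 92.8 FPKM against 1.1, 0.898 and 0.89 FPKM. Of 4 tested blood and endothelial genes, TEK and CD68 were lower and CLDN5 and CD79A higher, the latter not under quantile normalization, and 2 of the 9 listed inside MRC5 domains lay in kept ones. These shares rest on few genes each, beside 54.5% for all tested genes, and the lists were composed of genes that mark the lines.

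Of 27 tested genes for proteins that shape domains, nuclear lamina included, 18 were higher and 1 lower, or 16 higher after median ratio scaling. Over all genes 34.0% were higher and 16.4% lower, or 24.4% and 25.4% after that scaling. STAG2, the cohesin subunit, measured 150, 157 and 139 FPKM in DMS153 against 16.2, 15.5 and 15.8 FPKM in MRC5 (log2 change 3.15 ± 0.10, limma adjusted p = 2.41e-09). The shifted MRC5 domain that holds the midpoint of its locus ended where the long X stretch without MRC5 domains began. The locus, chrX:123094062-123556514, reaches past both ends of this 280 kb domain. CTCF measured 27.6, 30.7 and 25.8 FPKM against 10.2, 10.1 and 10.1 FPKM (log2 change 1.38 ± 0.07, limma adjusted p = 8.95e-08), was not called after median ratio scaling, and lay in a kept domain of 120 kb in MRC5. LMNB1, lamin B1, measured 100, 117 and 95.8 FPKM against 3.08, 2.7 and 2.41 FPKM, and LMNA, lamin A, 84.6, 89.0 and 94.2 FPKM against 334, 407 and 387 FPKM. TMPO, a lamina-associated protein, measured 187, 217 and 172 FPKM against 11.8, 9.79 and 13.1 FPKM.

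Gene starts were more frequent at the ends of kept, shifted and unmatched domains than 20 to 40 kb inside them. Ends of split and merged domains were not counted. Within 20 kb of an end there were 48.6 gene starts per 100 ends of kept domains, 44.0 for shifted and for unmatched MRC5 domains and 37.0 for unmatched DMS153 domains. The first 20 kb inside the end held 22.4, 20.0, 21.3 and 20.8 of them in the same order. The next 20 kb held 14.2, 13.3, 13.9 and 10.0. In the 40 kb that lie 160 to 200 kb from the end on the domain's side, the values were 31.0, 26.1, 25.9 and 24.1. Domains of 80 to 180 kb, which end before 200 kb, were counted too. Over all chromosomes these were 684 of 2222 kept MRC5 and 1026 of 2138 unmatched DMS153 domains. The values at 160 to 200 kb therefore do not describe interiors alone. A gene start lay within 20 kb of 36.0% of 4232 kept ends, 32.9% of 856 shifted and 32.5% of 1736 unmatched MRC5 ends, and 28.0% of 4060 unmatched DMS153 ends. Ends of unmatched DMS153 domains had the fewest gene starts within 20 kb of the end and also the fewest 20 to 40 kb inside it. Chromosome 8 was not used here. Gene starts came from the hg19 loci, with the strand from RefSeq for 14306 genes.

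**Figure D5:**
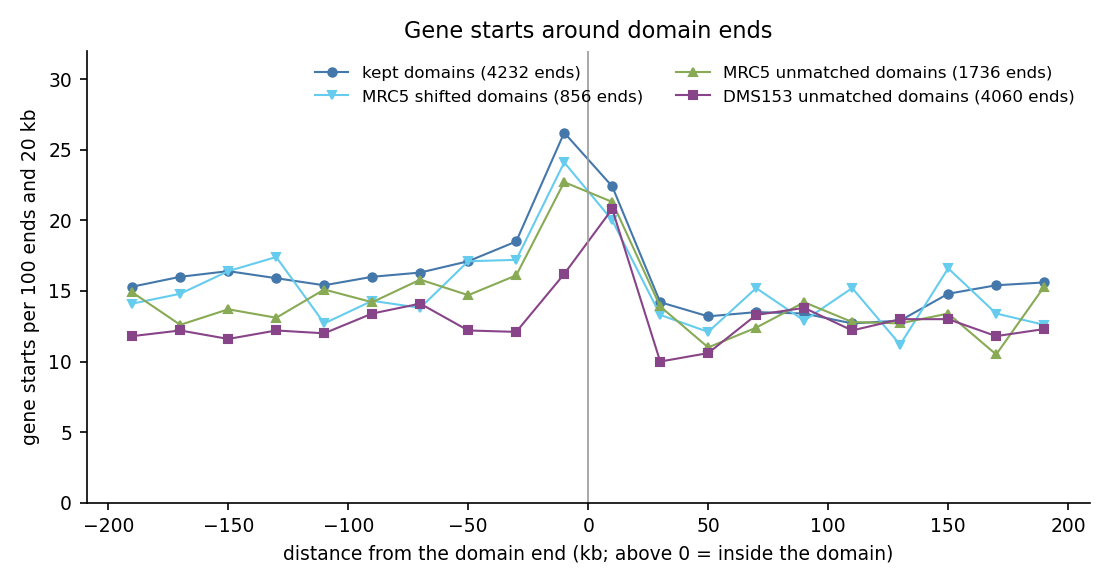
Gene starts per 100 domain ends in bins of 20 kb, by distance in kb from the end, for ends of kept, shifted and unmatched MRC5 domains and of unmatched DMS153 domains. Values above 0 lie on the domain's side, and past its other end where the domain is shorter than that distance. All 4 lines peak in the bins next to the end, and the line of unmatched DMS153 domains lies lowest at the outer bin.

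The letters CCANNAGNNGGC were about as frequent at promoters near each kind of end. They stood in 3.05% of promoters within 20 kb of a kept end, 2.95% for shifted and 2.17% for unmatched MRC5 ends, and 2.51% for unmatched DMS153 ends, against 2.55% of all 14306 matched promoters. At CHGA the match shown above lay near the end of an unmatched MRC5 domain, and at CD68 near the end of the unmatched domain on chromosome 17. A match is a description of the letters, and CTCF binding was not measured in these samples.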

How the data were processed

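Hi-C of 3 cell lines (1 library each) and RNA-seq (3 DMS153, 2 H209 and 3 MRC5 libraries) were used. Per the submitters' processing notes, the tools were HOMER 4.8, Cufflinks 2.2.0, TopHat2 2.1.0 and Bowtie2, on assembly hg19. The deposited Hi-C tables list domains on a 20 kb grid with a deposited score, made by the authors in a way not given in the sources used here; it only ranked domains within a line. The RNA tables hold FPKM per gene from the authors, per the file headers, and were used as deposited. FPKM depends on what else a library holds, and depth in reads is not given in the sources used here. Titles write DM153 for the DMS153 RNA libraries, and the cell line field was followed. Overlapping and antisense genes can share reads, since strand is not stated.

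Domains were matched in Python 3.11.15 with pandas 2.3.3 and NumPy 2.4.6; 3 chrY domains of MRC5 were left out, and intervals came from SciPy 1.17.1. The matching was tested on simulated domains. RNA was fitted in R 4.3.3 with limma 3.58.1 on log2(FPKM + 1) for 19066 genes of at least 1 FPKM in at least 2 of 8 libraries, leaving 5 residual degrees of freedom, with eBayes and a trend. Calls needed an adjusted p (Benjamini-Hochberg, all tested genes) below 0.05 and a log2 change of 1 or more in size. In 163 listed genes a library had a failed status, and these values were kept. Same-numbered DMS153 and MRC5 libraries deviated together by correlations of 0.0771, 0.0717 and -0.0118, so the numbers were not used as pairs. Fold changes are on the log2(FPKM + 1) scale and understate those of low genes, and for genes listed at 0 in a line their size depends on the added 1.

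Domains, genes and lists (neuroendocrine and lung lineage, epithelial, fibroblast, contractile and adhesion, cell division, domain architecture, blood and endothelial) were chosen with earlier results of these data known. A few genes of these sets are not reported here. Named were the core genes, in each class the domain with the most called genes and its 2 called genes with the largest change at 5 FPKM or more, up to 2 called list members in each direction, and the HOX, protocadherin, keratin and histone clusters. Further genes of those domains, of the runs and of the clusters, and the promoters, were picked after their values were seen. Alternatives changed the overlap limits, the order of the rules, the domains used, the pseudocount, the filter, the scaling and the libraries. Added after seeing the data were the scalings for genes by class and runs without small RNA loci.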

Additional observations from a re-analysis of the deposited data

How the results depend on the processing

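With 1 Hi-C library per line and no read depth, how often a domain was missed in either file is not known, scores cannot be compared between lines, and the grid sets ends to 20 kb. In each alternative that gave all 3 shares, kept MRC5 domains were the largest class, then unmatched, then shifted. Where a changed rule or a smaller set of domains did not set the move by its own construction, the cause was not tested.

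Kept MRC5 domains came to 64.9% at an overlap of 70%, 51.7% at 90%, 58.1% with both ends within 40 kb, 63.1% without the 25% of domains with the lowest scores and 52.1% with as many DMS153 as MRC5 domains. For DMS153 the kept share was 47.8%, 38.0%, 42.8%, 46.5% and 52.1% in the same order, and 46.4% above 100 kb. Split domains came to 1.85% above 100 kb, 1.41% without the lowest scores, 1.27% with equal numbers, 4.57% at a cover of 60% and 0.406% with shifted called first. Merged domains came to 0.433% without the lowest scores and 0.649% with shifted called first. Shifted domains came to 7.73% and 20.2% at 70% and 90%, 13.7% by ends, 9.41% without the lowest scores, 8.92% with equal numbers, 14.3% when called first and 15.7% from an overlap of 40%. Unmatched domains came to 36.9% with equal numbers, 22.9% at a cover of 60% and 20.8% with shifted from 40%.

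Quantile normalization gave 4242 higher genes against 6489, and median ratio scaling 4849 lower genes against 3123. Called genes under quantile normalization were 49.2% in kept (53.8% as deposited), 53.5% in split (60.1%), 49.5% in shifted (55.2%) and 50.2% in unmatched MRC5 domains (54.2%). Leaving out each DMS153 or MRC5 library in turn gave 6385 to 6493 higher and 3067 to 3156 lower genes. The replicate block gave 6490 and 3125. Of 101 alternative values 61 were counted as the same, 40 as moved and 0 as reversed. Shares were judged by their counting interval and gene counts more loosely. Thus 4653 higher genes after median ratio scaling and 4432 lower genes after quantile normalization counted as the same. The order of the split and merged shares and the balance of the calls were not among these values. With shifted called first, merged MRC5 domains outnumbered split ones. The balance of the calls went from 67.5% higher as deposited to 49.0% after median ratio scaling and 48.9% after quantile normalization.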
